A study of Homo sapiens with 12 samples.

Results

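The mitochondrial ribosomal protein genes were followed here as a family of 77 genes among the 43613 genes with linear transcripts in the deposited table. A gene belonged to the family when it was protein-coding and its symbol was MRPL or MRPS followed by a number. This gave 49 MRPL and 28 MRPS symbols, and 113 pseudogene or noncoding symbols of the same form were left out. All 77 genes were in the table and all 77 passed the filter on low counts. By protein, 51 belong to the large subunit and 26 to the small subunit, since MRPS30 and MRPS18A sit in the large subunit despite their symbols. RNA came from PC3, a human prostate cancer cell line labelled wild type, in 12 libraries that form 4 groups of 3. COM cells received silver nanoparticles (AgNPs) and DOC together, DOC cells received DOC, AgNPs cells received silver nanoparticles, and BLANK cells received the vehicle PBS. What DOC stands for, the doses, the times and any batches are not in the labels. Nor is the origin of the replicates, so a p-value here reflects the spread among the sequenced libraries, which may be technical.

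Mitochondria carry their own ribosome, built from ribosomal RNAs encoded in mitochondrial DNA and from proteins encoded in the nucleus, made in the cytosol and imported. Its small subunit binds the messenger RNA and decodes it, and its large subunit joins the amino acids and threads the new protein towards the inner membrane. It makes the few respiratory chain and ATP synthase subunits that mitochondrial DNA encodes. Some of its proteins descend from bacterial ribosomal proteins, and others are found in mitochondria alone. Of the 77 proteins, 48 have a bacterial homologue and 29 are mitochondria-specific.

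Promoter sequences are shown for 4 members on which the results turn: MRPS26, MRPS34 and MRPL12, which were among the members with the lowest levels in COM relative to BLANK, and MRPS10, which was higher. Each run ends at the base before the RefSeq gene start and is written 5′ to 3′ on the strand of the gene, from RefSeq on GRCh38.p14. Capitals mark CCGGAAG or its reverse complement CTTCCGG, the core bound by ETS factors such as GABPA. The runs lie at chr20:3045992-3046051 on the plus strand for MRPS26, chr16:1773135-1773206 on the minus strand for MRPS34, chr17:81703217-81703366 on the plus strand for MRPL12 and chr6:42217862-42218011 on the minus strand for MRPS10.
MRPS26: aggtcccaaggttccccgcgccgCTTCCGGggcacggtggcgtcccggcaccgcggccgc
MRPS34: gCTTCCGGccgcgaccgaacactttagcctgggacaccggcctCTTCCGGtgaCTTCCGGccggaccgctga
MRPL12: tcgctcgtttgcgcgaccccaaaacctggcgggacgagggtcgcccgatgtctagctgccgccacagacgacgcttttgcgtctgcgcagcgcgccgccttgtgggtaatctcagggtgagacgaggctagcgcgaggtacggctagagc
MRPS10: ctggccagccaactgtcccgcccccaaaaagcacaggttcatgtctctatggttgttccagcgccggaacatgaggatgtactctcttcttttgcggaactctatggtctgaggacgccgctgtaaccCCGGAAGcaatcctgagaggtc
The motif stood 3 times in the MRPS34 run (72 bases) and 1 time in the MRPS26 run (60 bases). It stood 1 time in the MRPS10 run and 0 times in the MRPL12 run (150 bases each). The runs differ in length, so these counts cannot be compared between genes. MRPS17 and MRPL41, also among the members with the largest falls in COM, are not shown. A match is a string of letters and not a bound site, and its relation to the direction in which these 4 genes moved was not tested.

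Linear counts per library ran from 10996446 in COM to 22769479 in BLANK. Every group had its own depth: the COM libraries were the shallowest and the BLANK libraries the deepest, and the AgNPs libraries were shallower than the DOC libraries. The share of counts on RefSeq rows was 83.8% ± 0.15 in COM, 84.8% ± 0.405 in DOC, 85.7% ± 0.347 in AgNPs and 86.6% ± 0.363 in BLANK (SD, n = 3 each). Depth and this share moved with the treatment. With all libraries thinned to 10996394 counts, 67 members passed in COM against BLANK, and on RefSeq rows alone 64 passed. With AgNPs against BLANK 36 passed when thinned and 45 on RefSeq rows alone, beside 48 in the main fit. In the main fit 49.6% of all tested genes passed in COM and 30.9% with AgNPs. No share of all genes under the other settings is given here, and the part of depth in the results was not tested. The epithelial markers KRT8 (148 to 197 CPM) and KRT18 (194 to 247 CPM) were high in every library, and EPCAM and CDH1 were detected. Of 8 fibroblast, immune and endothelial markers, 7 had counts, and their summed level was 118 to 136 CPM in COM, 150 to 164 in DOC, 128 to 133 in AgNPs and 148 to 156 in BLANK, mostly from COL1A2 and CD68. The defining markers PTPRC and VWF were at 0 in some libraries and did not exceed 0.103 and 0.514 CPM. Of the 5 non-epithelial markers that could be tested, PDGFRB and CD68 were higher and COL1A2 was lower in COM than in BLANK, and COL1A2 was lower with AgNPs. Of the 4 epithelial markers, KRT8 was higher and KRT18 and EPCAM were lower in COM. The part of these markers in the results was not tested.

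Per length, levels varied widely over the family. In BLANK cells 69 of 77 members had between 10 and 100 FPKM (fragments scaled to transcript length and library size), and the median over members was 38.9 FPKM. The highest level was that of MRPL4, the homologue of bacterial L4, which lines the exit tunnel, at 115 ± 2.43 FPKM in COM, 149 ± 2.95 in DOC, 137 ± 3.19 in AgNPs and 169.7 ± 3.6 in BLANK. The lowest was that of MRPS14, the homologue of bacterial S14, at 3.65 ± 0.142 FPKM in COM, 5.0 ± 0.295 in DOC, 4.33 ± 0.253 in AgNPs and 5.02 ± 0.348 in BLANK (SD, n = 3 each). The median over members was 30.4 FPKM in COM, 34.8 in DOC and 33.4 in AgNPs. In every library 74 members had at least 100 counts, and the lowest count of any member was 52, for MRPL54. Counting error is part of the spread at such counts.

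All later levels are CPM, counts scaled to library size with TMM factors, which serve to compare a gene between libraries and not between genes. The summed level of the 77 members was 3468, 3502 and 3475 CPM in COM, 4105, 3972 and 3941 CPM in DOC, 3865, 3841 and 3910 CPM in AgNPs, and 4273, 4328 and 4343 CPM in BLANK. No treated library reached the lowest BLANK library, and the 3 COM libraries lay below all others. As a share of BLANK the mean sum was 80.7% in COM, 92.9% in DOC and 89.7% in AgNPs. The subunits lay close together, at 80.1% for the large and 81.6% for the small subunit in COM, 92.5% and 93.4% in DOC, and 89.3% and 90.4% in AgNPs. These values are relative to the rest of each library and give no amount of RNA per cell. In bulk RNA they cannot tell a change in the mix of cells from a change within cells.

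In COM cells most of the family fell relative to BLANK. A member passed when edgeR's quasi-likelihood test gave it an adjusted p (Benjamini-Hochberg, 19986 genes) below 0.05. In COM 63 of 77 members fell, 2 rose and 12 did not pass, where 24.5% of all tested genes fell, 25.1% rose and 49.6% passed in either direction. For 67 members all 3 COM libraries lay below all 3 BLANK libraries, as for 27.4% of all tested genes. The median log2 fold change over members was -0.33, against 0.03 over all genes, and 73 members were below 0. In the large subunit 42 of 51 fell and 1 rose, and in the small subunit 21 of 26 fell and 1 rose. Of members with a bacterial homologue 39 of 48 fell, and of mitochondria-specific members 24 of 29 fell.

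The largest falls in COM were in the small subunit. MRPS26 (chromosome 20), a mitochondria-specific protein, had 19.2, 18.8 and 21.3 CPM in COM, 30.6, 25 and 26.1 in DOC, 26.6, 28.4 and 26.6 in AgNPs, and 32.1, 34.6 and 36.5 in BLANK. Each treated group lay below all BLANK libraries, and COM lay below both single treatments. It was 1.74-fold lower in COM than in BLANK (log2 fold change -0.80 ± 0.08, SE; adjusted p = 4.4e-11). MRPS34 (chromosome 16), another mitochondria-specific protein, needed for a stable small subunit, had 61.7, 59.9 and 63.1 CPM in COM, 91.9, 88.7 and 84.3 in DOC, 79.7, 78.7 and 81.9 in AgNPs, and 102, 105 and 103 in BLANK. The 4 groups did not overlap, in the order COM, AgNPs, DOC, BLANK. In COM it was 1.68-fold lower than in BLANK (-0.75 ± 0.04, adjusted p = 2.92e-17).

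MRPS17 (chromosome 7), the homologue of bacterial S17, had 14.3, 12.8 and 11.5 CPM in COM, 22.4, 17.6 and 18.2 in DOC, 17.6, 16.6 and 18.7 in AgNPs, and 19.7, 21.0 and 20.5 in BLANK. Only COM lay clear of every other group, and DOC overlapped both AgNPs and BLANK. The fall in COM against BLANK was 1.59-fold (-0.67 ± 0.09, adjusted p = 1.59e-07). Its exons overlap those of NIPSNAP2 and AC092647.5 on the same strand in GENCODE v29 and RefSeq lists 6 pseudogenes of it, so part of its counts is uncertain. MRPS12, which sits at the decoding centre as bacterial S12 does, was 1.45-fold lower in COM (-0.54 ± 0.06, adjusted p = 8.47e-10), with 35.0, 36.5 and 34.4 CPM in COM against 46.9, 53.7 and 53.1 CPM in BLANK.

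In the large subunit, MRPL41 (chromosome 9), which is mitochondria-specific, had 26.5, 27.2 and 26.6 CPM in COM, 40.7, 31.7 and 32.7 in DOC, 37.5, 38.7 and 38.6 in AgNPs, and 40.2, 43.3 and 42.3 in BLANK. COM lay below all other libraries, and replicate 1 of DOC stood with BLANK while the other 2 did not. The fall in COM was 1.57-fold (-0.65 ± 0.07, adjusted p = 8.03e-09). MRPL12 (chromosome 17), the stalk protein that recruits translation factors, had 87.8, 87.8 and 83.5 CPM in COM, 117, 114 and 107 in DOC, 108, 109 and 111 in AgNPs, and 126, 131 and 132 in BLANK. COM stood apart below, BLANK stood apart above, and the single treatments overlapped. MRPL12 was 1.5-fold lower in COM than in BLANK (-0.59 ± 0.04, adjusted p = 6.3e-15). MRPL4 had 157, 157 and 154 CPM in COM against 229.5, 223 and 223 CPM in BLANK, a 1.44-fold fall (-0.53 ± 0.03, adjusted p = 4e-16). MRPS14, the least expressed member per length, fell 1.38-fold (-0.46 ± 0.11, adjusted p = 0.000373).

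**Figure D1:**
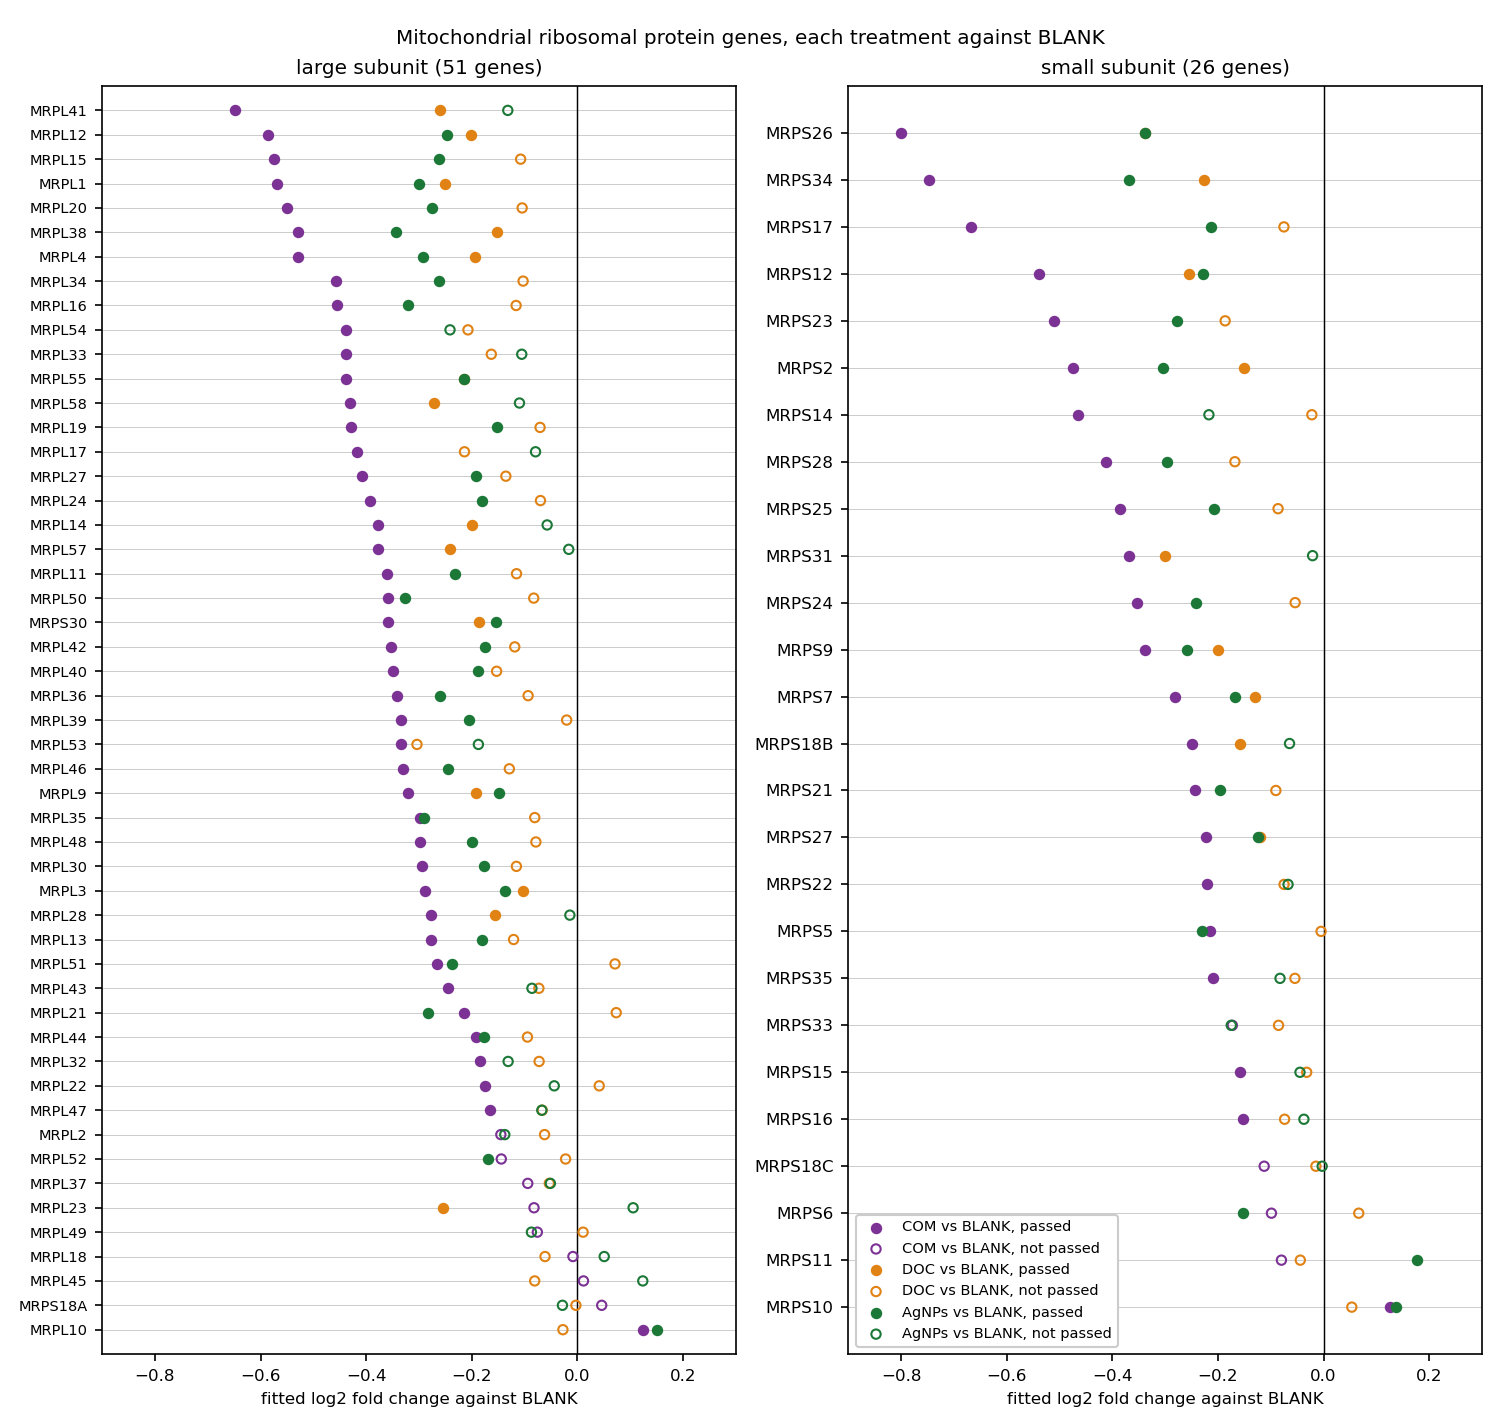
Fitted log2 fold change (x axis) of each of the 77 genes (y axis, 51 of the large and 26 of the small subunit, ordered by COM) in COM, DOC and AgNPs against BLANK; filled points passed at adjusted p below 0.05 and open points did not. COM points run from -0.80 for MRPS26 to 0.13 for MRPS10, and DOC points lie between -0.34 and 0.07.

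The 2 members that rose in COM did so by little. MRPS10, the homologue of bacterial S10, had 65.3, 68.1 and 66.8 CPM in COM, 61.5, 66.1 and 62.8 in DOC, 66.5, 67.4 and 67.7 in AgNPs, and 63.4, 59.3 and 60.9 in BLANK. COM and AgNPs lay above BLANK without overlap, and DOC overlapped BLANK. In COM it was 1.09-fold higher (0.13 ± 0.04, adjusted p = 0.0166). MRPL10, whose bacterial homologue anchors the L12 stalk, was 1.09-fold higher (0.12 ± 0.05, adjusted p = 0.0408) with overlapping libraries, 54.1, 61.4 and 57.3 CPM in COM against 50.3, 53.9 and 54.4 CPM in BLANK. Both rises ended under DESeq2 (adjusted p = 0.101 and 0.156) and without COM replicate 2 (0.102 and 0.353). By DESeq2, 62 members fell and 0 rose.

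Those that did not pass in COM were MRPL2, MRPL18, MRPL23, MRPL37, MRPL45, MRPL49, MRPL52 and MRPS18A of the large subunit, and MRPS6, MRPS11, MRPS18C and MRPS33 of the small. Their log2 fold changes lay between -0.17 for MRPS33 and 0.05 for MRPS18A. Under at least 1 other setting MRPL2, MRPL23, MRPL37, MRPL49, MRPL52, MRPS6 and MRPS33 passed as falls. Of the 3 paralogs named MRPS18, 1 passed. MRPS18A of the large subunit had 27.7, 30.2 and 30.4 CPM in COM against 28.1, 28.7 and 28.8 CPM in BLANK (0.05 ± 0.06, adjusted p = 0.565). MRPS18B of the small subunit had 59.4, 61.8 and 57.9 CPM in COM against 73.1, 69.2 and 70.4 CPM in BLANK, a fall with no overlap (-0.25 ± 0.04, adjusted p = 1.51e-05). MRPS18C, the small-subunit homologue of bacterial S18, had 13.6, 13.5 and 12.9 CPM in COM against 15.7, 13.8 and 13.8 CPM in BLANK (-0.11 ± 0.09, adjusted p = 0.293). The difference between the paralogs was not tested.

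With AgNPs alone 45 of 77 members fell relative to BLANK, 3 rose and 29 did not pass, where 16% of all tested genes fell and 14.9% rose. The median log2 fold change over members was -0.18, against 0.01 over all genes. In the large subunit 30 of 51 fell and in the small subunit 15 of 26. MRPS34 fell 1.29-fold (-0.37 ± 0.04, adjusted p = 1.42e-09) and MRPS26 fell 1.26-fold (-0.34 ± 0.07, adjusted p = 0.000183). The other 3 of the 5 members with the largest falls belong to the large subunit. MRPL38, mitochondria-specific, had 49.0, 43.2 and 48.7 CPM in AgNPs against 58.4, 57.4 and 62.9 CPM in BLANK (-0.34 ± 0.05, adjusted p = 1.59e-06). MRPL50, also mitochondria-specific, had 21.3, 23.2 and 23.1 CPM in AgNPs against 27.6, 27.6 and 29.5 CPM in BLANK (-0.33 ± 0.07, adjusted p = 0.000463). MRPL16, the homologue of bacterial L16, had 43.9, 45.7 and 48.5 CPM in AgNPs against 57.4, 55.6 and 59.4 CPM in BLANK (-0.32 ± 0.05, adjusted p = 2.47e-06). The groups did not overlap for any of these 5 genes, which was a condition for naming them.

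For MRPL50 the COM libraries held 24.3, 22.8 and 18.9 CPM, which overlapped AgNPs, and the DOC libraries held 28.5, 25.3 and 26.1 CPM, which overlapped BLANK. The 3 members that rose with AgNPs were MRPS11 (0.18 ± 0.06, adjusted p = 0.02), MRPL10 (0.15 ± 0.05, adjusted p = 0.0167) and MRPS10 (0.14 ± 0.04, adjusted p = 0.0128). MRPS11, the homologue of bacterial S11, had 43.8, 40.6 and 38.4 CPM in AgNPs against 37.3, 33.1 and 38.1 CPM in BLANK. The lowest AgNPs library lay just above the highest BLANK library. MRPL10 had 60.2, 57.8 and 58.1 CPM in AgNPs, all above BLANK. None of these 3 rises passed with DESeq2 (adjusted p = 0.0828, 0.075 and 0.0753), which called 36 falls and 0 rises. MRPS17 passed narrowly here (-0.21 ± 0.08, adjusted p = 0.049) and did not pass with DESeq2 (adjusted p = 0.114), as in 10 of 21 alternatives.

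**Figure D2:**
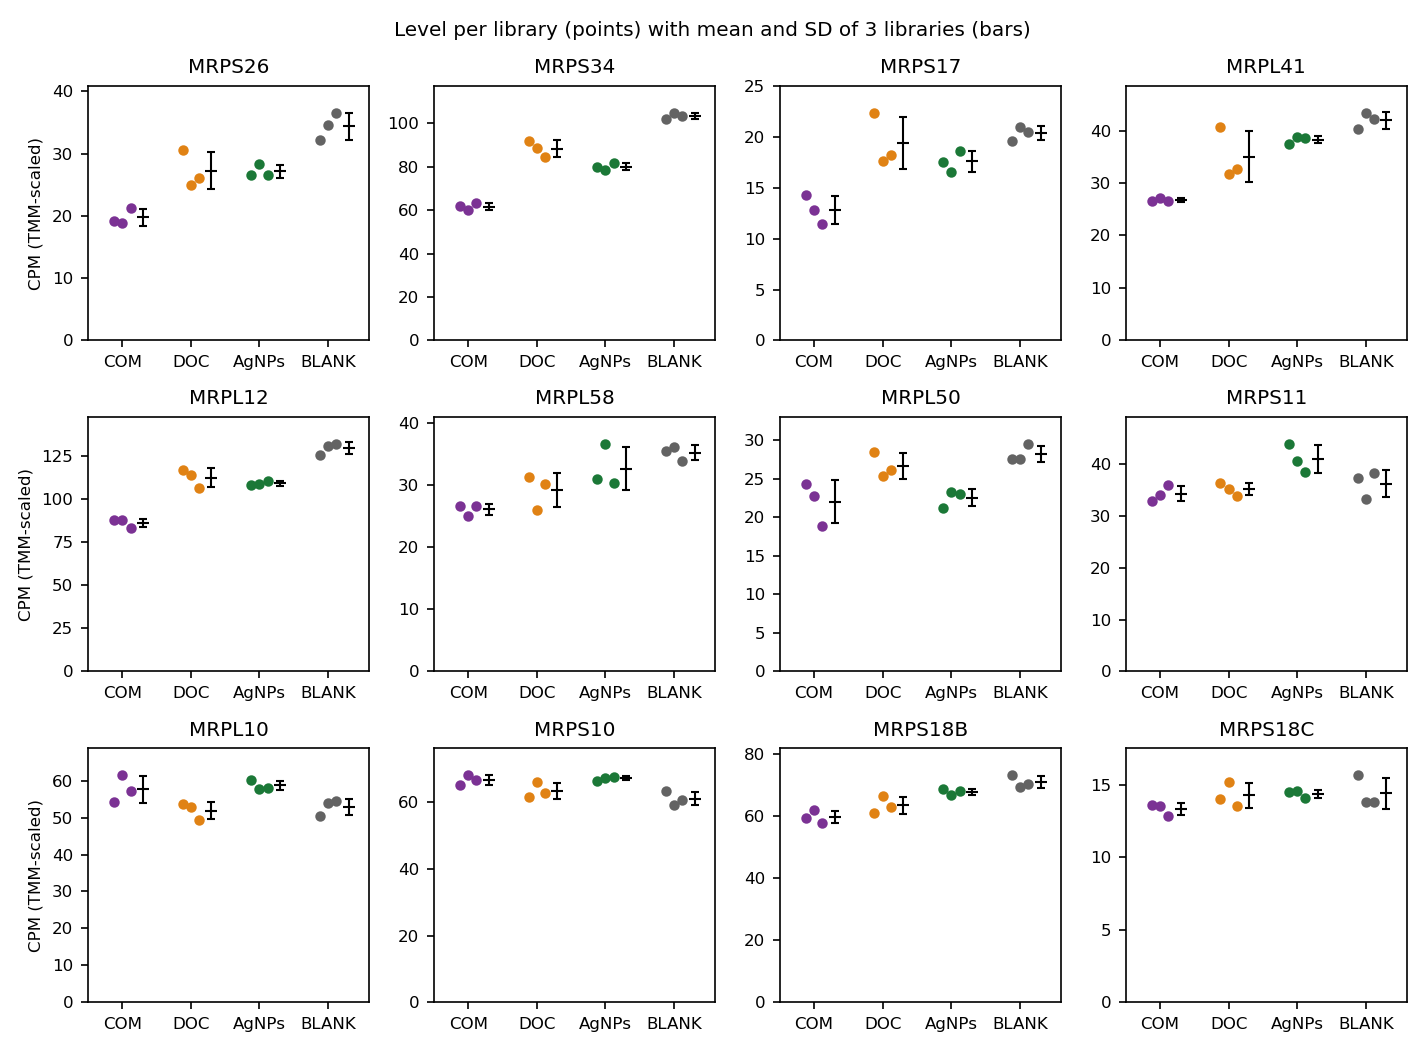
CPM after TMM scaling (y axis, from 0) of 12 named members in the 3 libraries of COM, DOC, AgNPs and BLANK (points), with the mean and SD of each group (bars). MRPS26, MRPS34, MRPL41 and MRPL12 are lowest in COM, with MRPS34 at 59.9 to 63.1 CPM in COM against 102 to 105 CPM in BLANK, while MRPS10 lies between 59.3 and 68.1 CPM in all 12 libraries.

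With DOC alone 23 of 77 members fell relative to BLANK, 0 rose and 54 did not pass, where 9.81% of all tested genes fell and 7.16% rose. The median log2 fold change over members was -0.10, against 0.00 over all genes. In the large subunit 14 of 51 fell and in the small subunit 9 of 26. MRPS26 fell 1.26-fold (-0.34 ± 0.06, adjusted p = 0.000321), with no overlap between its DOC and BLANK libraries. MRPS12 had 44.3, 42.5 and 42.2 CPM in DOC against 46.9, 53.7 and 53.1 CPM in BLANK (-0.25 ± 0.05, adjusted p = 0.00059). MRPL58, a peptidyl-tRNA hydrolase that frees stalled ribosomes, had 31.3, 26 and 30.1 CPM in DOC against 35.4, 36.2 and 33.8 CPM in BLANK (-0.27 ± 0.06, adjusted p = 0.00313). Its AgNPs libraries held 30.9, 36.5 and 30.3 CPM and overlapped BLANK.

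MRPL57, mitochondria-specific, had 28.1, 26.9 and 26.1 CPM in DOC against 30.4, 32.9 and 32.5 CPM in BLANK (-0.24 ± 0.06, adjusted p = 0.00409). MRPL1, the homologue of the bacterial L1 stalk protein, had 13.4, 11.9 and 12.1 CPM in DOC against 15.1, 14.7 and 14.6 CPM in BLANK (-0.25 ± 0.08, adjusted p = 0.0214). All 3 of these large-subunit genes lay below BLANK without overlap, which was a condition for naming them. With limma on log2(FPKM + 1) the calls of MRPL57 and MRPL58 ended (adjusted p = 0.511 and 0.0591), and with DESeq2 the call of MRPL1 ended (0.0831). The DOC count rested on single libraries: 35 members fell without DOC replicate 1, 14 without DOC replicate 3 and 15 without BLANK replicate 2. At an unadjusted p below 0.05 by edgeR, 34 members fell and 0 rose, with no share of all genes taken at that threshold. By adjusted p limma called 12 falls and DESeq2 16, both with 0 rises.

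Set against each single treatment, COM was lower for many members. Against DOC 48 of 77 members fell, 1 rose and 28 did not pass, where 18.5% of all tested genes fell, 18.1% rose and 36.6% passed in either direction, with a median of -0.20. Against AgNPs 32 fell, 0 rose and 45 did not pass, where 12% of all tested genes fell and 9.87% rose, with a median of -0.15. At an unadjusted p below 0.05 by edgeR, 45 fell and 0 rose in COM against AgNPs, with no share of all genes taken at that threshold. By adjusted p DESeq2 called 31 falls and 0 rises, and limma 32 falls and 1 rise. The largest falls against DOC were in MRPS17 (-0.59 ± 0.09, adjusted p = 3.46e-06), MRPS34 (-0.52 ± 0.04, adjusted p = 2.08e-12) and MRPL15 (-0.47 ± 0.07, adjusted p = 7.5e-07). MRPL15, the homologue of bacterial L15, had 25.4, 23.7 and 24.3 CPM in COM against 32.4, 35.5 and 33.5 CPM in DOC. The largest falls against AgNPs were in MRPL41 (-0.52 ± 0.08, adjusted p = 1.16e-05), MRPS26 (-0.46 ± 0.08, adjusted p = 8.52e-05) and MRPS17 (-0.45 ± 0.10, adjusted p = 0.00102). None of these 6 pairs of groups overlapped, which was a condition for naming these members. The 1 member that rose against DOC was MRPL10 (0.15 ± 0.05, adjusted p = 0.019), which passed neither with DESeq2 (adjusted p = 0.065) nor without COM replicate 2 (0.21).

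The interaction compares the DOC effect with AgNPs, COM minus AgNPs, with the DOC effect without AgNPs, DOC minus BLANK, on the log2 scale. By edgeR 0 of 77 members passed in either direction, where 0.375% of all tested genes were lower, 0.731% higher and 1.11% either, and DESeq2 and limma also called 0. The smallest adjusted p was 0.191, for MRPS17 (-0.38 ± 0.13). At an unadjusted p below 0.05 by edgeR, 7 members were lower and 0 higher. No share of all genes was taken at that threshold, so these counts have no background. The median over members was -0.03 and 52 of 77 members were below 0. Over all tested genes the median was -0.005 and 10266 of 19986 were below 0. With a median SE of 0.08 per gene, departures from additivity of that order were not detectable, and the missed threshold does not show that the effects add. Without DOC replicate 1 MRPL19 passed (-0.27, adjusted p = 0.00584).

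The other proteins of the mitochondrial ribosome, which carry unrelated names, did not all move the same way. Of all tested genes 24.5% fell and 25.1% rose in COM. In COM 4 of 5 fell: GADD45GIP1 (-0.79 ± 0.10, adjusted p = 9.52e-05), CHCHD1 (-0.55 ± 0.07, adjusted p = 1.59e-08), AURKAIP1 (-0.46 ± 0.05, adjusted p = 2.08e-07) and PTCD3 (-0.29 ± 0.04, adjusted p = 3.77e-07). DAP3, a GTP-binding protein of the small subunit also known from cell death signalling, rose (0.33 ± 0.04, adjusted p = 6.71e-09). DAP3 also rose with AgNPs (0.24 ± 0.04, adjusted p = 4.55e-06) and did not pass with DOC (0.02 ± 0.04, adjusted p = 0.828). Its rise in COM was larger than that of any of the 77 members.

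Many genes that serve the mitochondrial ribosome were lower in COM as well. Of all tested genes 24.5% fell in COM, 9.81% with DOC and 16% with AgNPs. Of 18 genes for mitochondrial transcription and RNA handling, 15 fell and 1 rose in COM, 14 fell with AgNPs and 5 with DOC, with medians of -0.32, -0.19 and -0.06. POLRMT, the mitochondrial RNA polymerase, fell in COM (-0.74 ± 0.04, adjusted p = 1.68e-16), with DOC (-0.27 ± 0.04, adjusted p = 6.69e-06) and with AgNPs (-0.30 ± 0.04, adjusted p = 2.5e-07). TBRG4, also called FASTKD4, a stabiliser of mitochondrial messenger RNAs, fell in COM (-0.55 ± 0.04, adjusted p = 1.68e-13). PNPT1, the mitochondrial polynucleotide phosphorylase, fell too (-0.53 ± 0.04, adjusted p = 1.37e-12), and FASTKD5 was the 1 gene that rose (0.23 ± 0.05, adjusted p = 0.000448). Of 26 assembly and ribosomal RNA modification factors, 17 fell in COM, 5 with DOC and 12 with AgNPs, and none rose by edgeR. Among them were the helicase DHX30 (-0.47 ± 0.04, adjusted p = 1.04e-13), the pseudouridine synthase TRUB2 (-0.45 ± 0.05, adjusted p = 1.59e-09) and the small-subunit maturation factor RBFA (-0.55 ± 0.07, adjusted p = 3.8e-08) in COM.

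Of 15 translation factors, 10 fell in COM, 2 with DOC and 7 with AgNPs, with medians of -0.23, -0.08 and -0.12. Of all tested genes 24.5%, 9.81% and 16% fell in the same order. The 2 falls with DOC were 13.3% of the factors, near the share of all genes. The elongation factors TUFM (-0.30 ± 0.03, adjusted p = 1.16e-10) and GFM1 (-0.37 ± 0.03, adjusted p = 9.61e-12) and the initiation factor MTIF2 (-0.37 ± 0.05, adjusted p = 1.07e-07) fell in COM. Of 9 regulators of mitochondrial biogenesis, 5 fell in COM, 2 with DOC and 4 with AgNPs. MYC fell in COM (-0.74 ± 0.03, adjusted p = 3.48e-21), with DOC (-0.11 ± 0.03, adjusted p = 0.0105) and with AgNPs (-0.50 ± 0.03, adjusted p = 4.04e-16). The coactivators PPARGC1B (-0.71 ± 0.04, adjusted p = 6.72e-16) and PPRC1 (-0.44 ± 0.04, adjusted p = 4.55e-12) fell in COM. NRF1 (-0.15 ± 0.07, adjusted p = 0.0891) and GABPA (-0.06 ± 0.05, adjusted p = 0.385), the DNA-binding factors best known for respiratory genes, did not pass in COM.

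Beside these lists, the nuclear-encoded respiratory chain subunits, whose mitochondrial partners the mitochondrial ribosome makes, showed 62 falls and 2 rises among 78 tested genes in COM, 16 falls with DOC and 40 with AgNPs, with medians of -0.26, -0.06 and -0.15. The cytosolic ribosomal proteins showed 55 falls and 1 rise among 86 tested genes in COM, 35 falls with DOC and 10 with AgNPs, with medians of -0.18, -0.12 and -0.04. With AgNPs 2 of them rose. Of all tested genes 24.5% fell in COM, 9.81% with DOC and 16% with AgNPs. The 10 cytosolic falls with AgNPs, 11.6% of that family, lay below this share. In these counts the mitochondrial ribosome stood nearer the respiratory chain than the cytosolic ribosome with AgNPs, where 45 of its 77 genes fell. With DOC 23 of its 77 genes fell, and its median of -0.10 lay between those of the 2 other families. Nothing particular to a family was tested.

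**Figure D3:**
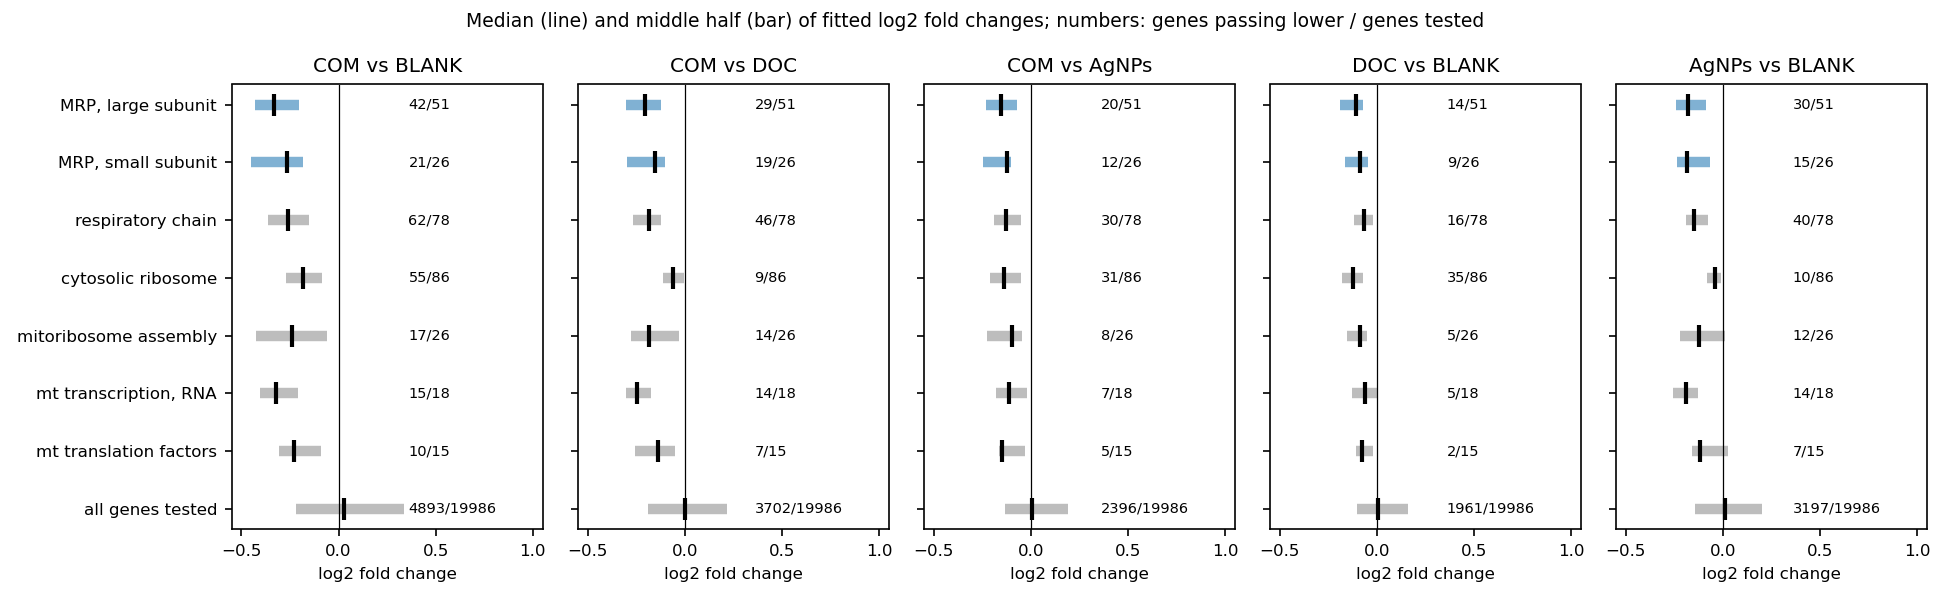
Median (line) and range from the lower to the upper quartile (bar) of fitted log2 fold changes (x axis) for the large and small subunit, 5 related gene groups and all genes tested (y axis), in 5 comparisons; the figures at the right are genes that fell over genes tested. In COM against BLANK the medians of both subunits, -0.33 and -0.27, lie below that of all genes, 0.03. With AgNPs the cytosolic ribosome shows 10 falls among 86 genes (11.6%), where 16% of all tested genes fell.

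Falls in COM were found among low, middle and high members. Split by mean FPKM, which is per length, 20 of the 26 lowest members, 21 of the 25 middle members and 22 of the 26 highest members fell in COM, with medians of -0.33, -0.33 and -0.28. Processed pseudogenes and overlapping genes can take or lend reads, and the strand used in counting is not given in the sources used here. Of 36 members without a pseudogene in RefSeq, 32 fell and 1 rose in COM, with a median of -0.42. Of 36 members whose exons overlap no other gene in GENCODE v29, 30 fell and 2 rose, with a median of -0.35.

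The share of a gene's counts on its coding transcript rows was also set against BLANK. Of 40 members with counts on noncoding rows, 10 (25%) had a lower coding share in COM than in BLANK without overlap, and 0 had a higher one. Among 6960 protein-coding genes with such rows and a mean level within the members' range, 16% were lower and 5.43% higher in the same way. The median shift was -0.589 percentage points over these members and -0.214 over all these genes. The split of counts between rows is an estimate, the share on RefSeq rows moved with treatment, and no test was made. The largest shift in a member was in MRPL23, the homologue of bacterial L23, which lines the exit site. Its main coding row held 26, 31.2 and 26.8% of the gene's counts in COM, 36.4, 44.1 and 41.8% in DOC, 33.1, 36.3 and 27.2% in AgNPs, and 56.5, 51.8 and 56.3% in BLANK. Every treated library lay below every BLANK library. Its main noncoding row held 45.0% ± 0.342 in COM, 34.9% ± 4.60 in DOC, 42.0% ± 5.73 in AgNPs and 26.4% ± 1.97 in BLANK (SD, n = 3 each). Summed over rows MRPL23 did not pass in COM (-0.08 ± 0.09, adjusted p = 0.448), while its main coding row alone averaged 4.64 ± 0.574 CPM in COM and 9.59 ± 0.989 CPM in BLANK. With RefSeq rows only MRPL23 fell in COM (-0.48, adjusted p = 0.000399 by edgeR), and it fell with limma on log2(FPKM + 1) (-0.59, adjusted p = 0.000403).

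MRPL18, the homologue of bacterial L18, had the next largest shift. Its main coding row held 50.8, 45.3 and 50.5% of the counts in COM, 49.1, 61.7 and 68.3% in DOC, 61.1, 51.5 and 62.9% in AgNPs, and 70.5, 64.5 and 62.4% in BLANK. COM lay below BLANK without overlap, while DOC and AgNPs reached into BLANK. Its noncoding RefSeq row held 43.2% ± 2.70 in COM, 30.0% ± 8.39 in DOC, 35.2% ± 3.08 in AgNPs and 25.3% ± 2.17 in BLANK (SD, n = 3 each). Summed over rows MRPL18 did not pass in COM (-0.01 ± 0.05, adjusted p = 0.912). A shift of 10 points or more in the coding share was found in 3 members and in 4.45% of the 6960 genes. The third member was MRPL21, at 73.4% ± 3.40 in COM and 84.1% ± 0.605 in BLANK.

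**Figure D4:**
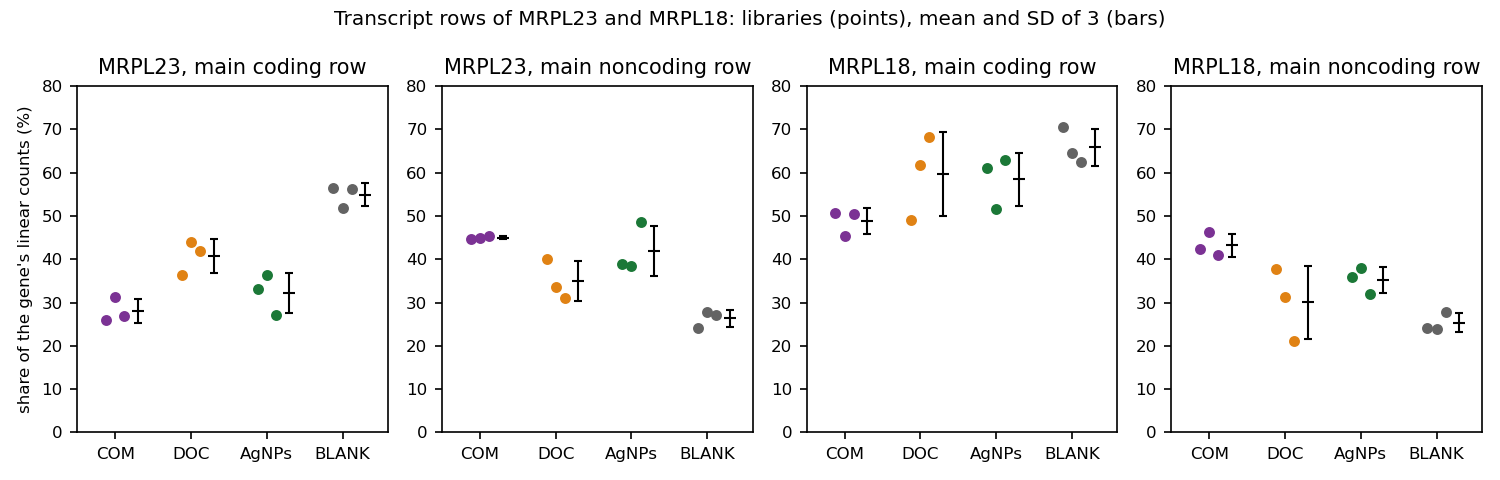
Share of the gene's linear counts in percent (y axis) on the main coding and the main noncoding transcript row of MRPL23 and MRPL18, for the 3 libraries of COM, DOC, AgNPs and BLANK (points), with mean and SD (bars). The coding row of MRPL23 lies between 26 and 31.2% in COM and between 51.8 and 56.5% in BLANK.

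Promoter letters were compared over the 69 members that matched a RefSeq window of 250 bases before to 50 bases after the gene start, on both strands, with 15842 protein-coding genes as background. The ETS core CCGGAAG, printed in capitals in the sequences of MRPS26, MRPS34 and MRPS10, stood in 43.5% of members and 16.5% of all windows. The YY1 motif AAGATGGCG stood in 18.8% of members and 3.21% of all windows. The NRF1 motif, GCGCA followed by any base and GCGC (13% and 9.66%), the E-box CACGTG (13% and 10.9%) and the GC box GGGCGGG (50.7% and 50.3%) differed less, and TATAAA stood in 4.35% and 12.4%. In COM 24 of the 30 members with the ETS core fell, with a median of -0.30, and 34 of the 39 members without it fell, with a median of -0.35. Of the 9 members with an E-box 4 fell in COM, with a median of -0.17, and of the 60 without it 54 fell, with a median of -0.35. The motifs were chosen and the windows split with the family's values known, and these counts were not tested.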

How the data were processed

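RNA of PC3 cells was sequenced in 12 libraries, 3 in each of COM, DOC, AgNPs and BLANK, after TRIzol extraction and a BGI mRNA library kit, per the labels. HISAT2, Bowtie2 2.2.5, RSEM and GRCh38 are named in the submitters' processing notes, without roles. The deposited table holds 221796 transcript rows, 177700 of them linear. Its read columns hold expected counts per transcript, as deposited by the authors and not normalised. Its expression columns hold FPKM computed by the authors, a unit inferred from counts, lengths and totals, since none is named. Its 10 group-mean columns were not used.

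Expected counts of linear rows were summed by gene and rounded. Testing used edgeR 4.0.16 under R 4.3.3 (TMM, filterByExpr by group, 1 robust quasi-likelihood fit over 12 libraries, 19986 genes, biological coefficient of variation 0.0334). Tests were two-sided, with Benjamini-Hochberg adjustment over all genes and calls below 0.05. The ± beside a log2 fold change is its standard error, with 3 libraries per group. The fit was tested on simulated data with 200 changed genes. A floor of 3 counts per library ranged from 0.132 to 0.273 CPM with depth, and allows for counting error alone. Replicates differed by more than counting noise in every group (chi-square per degree of freedom 1.46 to 4.76). The highest values were those of DOC replicate 1 against replicates 2 and 3 (4.43 and 4.76). BLANK replicate 1 followed, against replicates 2 and 3 (3.703 and 3.455). Replicates 2 and 3 gave 1.71 in DOC and 1.83 in BLANK.

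Alternatives were DESeq2 1.42.0, other size factors, filters on low counts, a replicate block, fits on both groups alone, limma 3.58.1 on log2(FPKM + 1), RefSeq rows only, thinned counts and leaving out each library. Values in every library are given for up to 5 called members each way without overlap per treatment against BLANK, up to 3 for COM against either single treatment and for the interaction, the highest and lowest member by FPKM, and the MRPS18 paralogs. Up to 3 genes per related list were named by smallest adjusted p, and further genes of those lists (GADD45GIP1, PTCD3, NRF1 and GABPA in COM, for example) were named after their values were seen, as were MRPL23, MRPL18 and MRPL21 for their transcripts. The members, lists and tests were chosen with earlier results of these data known. Python 3.11.15 with pandas 2.3.3 made the descriptions, and matplotlib 3.10.9 the plots.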

Additional observations from a re-analysis of the deposited data

How the results depend on the processing

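Over the 9 other settings the number of members that passed was 36 to 50 for AgNPs against BLANK, 12 to 28 for DOC against BLANK, 61 to 69 for COM against BLANK, 28 to 34 for COM against AgNPs and 38 to 53 for COM against DOC. In the main fit 30.9%, 17%, 49.6%, 21.9% and 36.6% of all tested genes passed in these comparisons, in the same order. The shares under the other settings are not given here. The 12 for DOC came from limma on log2(FPKM + 1), the 1 count that moved by more than 1.5 times. Leaving out 1 library at a time gave 32 to 49, 14 to 35, 60 to 67, 26 to 34 and 37 to 49 in the same order, and 0 to 1 for the interaction. Medians kept their sign throughout, at -0.38 to -0.31 for COM against BLANK. Of the members that fell, the call held under every alternative for 53 of 63 in COM, 21 of 45 with AgNPs and 10 of 23 with DOC against BLANK, for 20 of 32 in COM against AgNPs and 26 of 48 in COM against DOC; of the 6 rises, 0 held. limma on log2(FPKM + 1) reversed 5 values: MRPL30 and MRPL23 with AgNPs (0.11 and -0.35, adjusted p = 0.526 and 0.0231), MRPS5 and MRPL30 in COM against BLANK (0.0015 and 0.0013, adjusted p = 0.988 and 0.994) and MRPL35 in COM against AgNPs (0.31, adjusted p = 0.00238). The cause was not tested.

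Deviations of same-numbered libraries were weakly correlated, in both directions (-0.12 to 0.13). With 3 libraries per group these values cannot decide whether the numbers mark a pairing. A replicate block gave 43, 24, 65, 31, 47 and 0 calls for AgNPs, DOC and COM each against BLANK, for COM against AgNPs, for COM against DOC, and for the interaction.

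The median standard error per member was 0.06 on the log2 scale in COM against BLANK, so differences of that size were not detectable.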

Other observations

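For 20 members another gene starts within 1000 bases and is transcribed the other way. Of these 20 members 15 fell in COM, beside 63 of all 77 members. Of the 18 partners that are not members, 10 fell and 3 rose in COM, where 24.5% of all tested genes fell and 25.1% rose. MRPL51 (-0.27) lies beside NCAPD2 (-0.82), a condensin subunit, and MRPS2 (-0.48) beside PIERCE1 (-0.74). MRPL50 (-0.36) fell beside ZNF189, which rose (0.68), and MRPL14 (-0.38) beside TMEM63B, which rose (0.31). MRPL49 (-0.08) did not pass beside FAU (-0.43), which encodes a cytosolic ribosomal protein and fell. Exons of MRPL51 and NCAPD2 overlap by 382 bases on opposite strands, and those of MRPL49 and FAU by 158 bases. The strand used in counting is not given, so the values of such pairs may share reads. The pairs named are examples, and no difference within a pair was tested.

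MRPL46 and MRPS11 are both members and start 320 bases apart on chromosome 15. With AgNPs MRPL46 had 13.6, 13.2 and 12.3 CPM against 16.2, 14.4 and 15.8 CPM in BLANK and fell (-0.25 ± 0.08, adjusted p = 0.0233 by edgeR), while MRPS11 rose (0.18 ± 0.06, adjusted p = 0.02). In COM MRPL46 fell (-0.33 ± 0.09, adjusted p = 0.00206) and MRPS11 did not pass (-0.08 ± 0.06, adjusted p = 0.31). The difference between these 2 genes was not tested, and with DESeq2 neither of the calls with AgNPs passed (adjusted p = 0.0797 and 0.0828). The pair was chosen after the values were seen.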
